A study of Mus musculus with 6 samples.

Results

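The genes that make and carry lactate were followed in cells of mouse bronchoalveolar lavage fluid, the saline wash of the airways and air spaces. They were Slc16a1, Slc16a3, Bsg, Ldha and Ldhb, 5 of the 22800 genes in the deposited table, found by their symbols. They were selected on their FPKM values in these same libraries, with the difference between the groups known. Messenger RNA was sequenced in 3 vehicle libraries (replicates 2, 3 and 4) and 3 sulfatide libraries (replicates 1, 2 and 3), the latter from animals injected intraperitoneally with 20 µg. Sulfatide is a glycolipid with a sulfate group, recognised on CD1d by type II NKT cells, and the series title names lung ischemia-reperfusion injury. No strain, genotype, age or time after injection is given in the labels, nor whether these mice had that injury or whether the libraries came from separate animals. The p-values therefore measure only the spread between these libraries, which may be technical.

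Lactate forms when lactate dehydrogenase reduces pyruvate, the end product of glycolysis, and in doing so restores the NAD+ that glycolysis needs. The enzyme is a tetramer of A subunits (Ldha), which are linked with lactate formation, and B subunits (Ldhb), which are linked with its oxidation. Lactate crosses the cell membrane together with a proton through monocarboxylate transporters, chiefly the widely expressed Slc16a1 (MCT1) and Slc16a3 (MCT4), the exporter of strongly glycolytic cells, and both carriers need basigin (Bsg) to reach the cell surface. Macrophages exposed to bacterial products are known to shift towards glycolysis and lactate export.

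Levels are in FPKM, fragments scaled to transcript length and to the size of the library, which allows levels of different genes to be compared. FPKM summed to 1126779 to 1168474 in the vehicle libraries and to 1217971 to 1249691 in the sulfatide libraries. Depth relative to vehicle replicate 2, estimated from the most frequent ratio between low values, was 0.851 to 1.20. At an adjusted p below 0.05 by limma, 865 of 10405 tested genes had a higher and 1078 a lower level in sulfatide, so that 44.5% of calls were higher. After rescaling every library to the same sum (TPM, transcript proportions) the calls were 467 and 1527, or 23.4% higher, and the median log2 fold change of all tested genes moved from 0.04 to -0.06. Leaving out vehicle replicate 2 gave 263 higher and 603 lower calls, and leaving out sulfatide replicate 3 gave 439 and 683. Higher calls were 1420, 422 and 345 when vehicle replicate 3, vehicle replicate 4 or sulfatide replicate 1 was left out. Macrophage markers summed to 29692 to 34371 FPKM in vehicle and 27070 to 38281 in sulfatide, with 1 of 8 lower (Itgax). Lyz2 made up most of these sums, at 26963 to 31506 FPKM in vehicle and 25051 to 35891 in sulfatide. Across the 8 markers the median log2 fold change was -0.09, with 4 positive. Among 11 markers of resident alveolar macrophages, 6 were tested. In vehicle Marco was at 81.2 to 104 FPKM, Plet1 at 27.6 to 49.4, Fabp4 at 18.7 to 35.5 and Chil3 at 19.3 to 30.5, whereas Krt79 and Fabp1 stood at 0 in every library and Siglecf did not exceed 0.9 FPKM. In sulfatide Plet1 was at only 1.95 to 5.04 FPKM (adjusted p = 0.000114 by limma). Marco was there at 60.0 to 183 FPKM, Fabp4 at 23.42 to 27.15 and Chil3 at 21.9 to 45.6, none past the threshold. The tested Ear2 (2.19 to 3.35 FPKM over all libraries) and Pparg (0.5 to 1.17) did not pass. Car4 did not exceed 0.91 FPKM and Ear1 0.59.

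The 5 genes differed in level over more than 2 orders of magnitude and in how far the groups lay apart. Slc16a1 was 3.94-fold and Ldhb 49.6% higher in sulfatide, Ldha and Bsg were 1.21-fold and 1.16-fold higher, and Slc16a3 was at nearly the same mean in both groups. All 5 passed the filter on low values. The genes were chosen with results of this contrast known, so their values are a description. By limma 2 of the 5 (Slc16a1 and Ldhb) were past the threshold, both higher, beside 18.7% of all genes tested, or 8.31% in that direction and 10.4% lower. The groups did not overlap for 4 of the 5, beside 37% of all genes tested, or 18.6% in that direction. The median log2 fold change (the mean of log2(FPKM + 1) in sulfatide less that in vehicle) was 0.27 for the 5 and 0.04 for all genes tested.

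**Figure D1:**
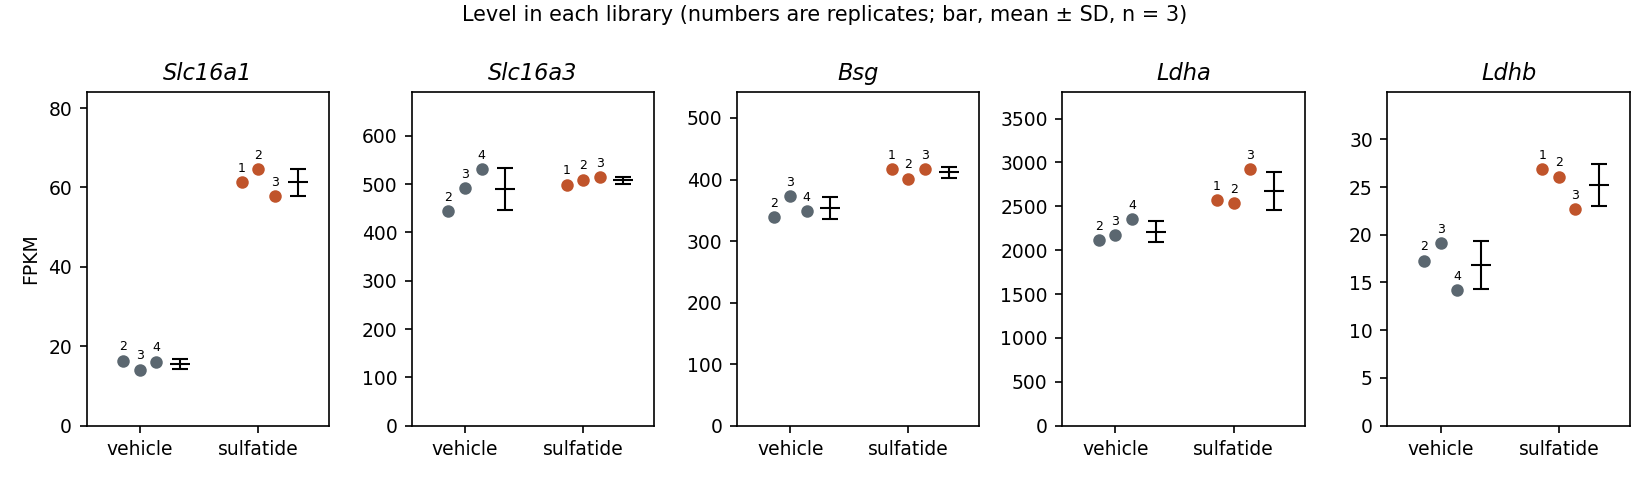
Level of each gene in FPKM (vertical axes from 0) in the 3 vehicle and 3 sulfatide libraries; points are libraries with their replicate number, and bars give the mean ± SD (n = 3). Slc16a1 lies at 14.1 to 16.4 FPKM in vehicle and 57.8 to 64.6 in sulfatide, while the Slc16a3 values of sulfatide lie within the vehicle range.

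Slc16a1, the carrier that moves lactate in either direction, was at 16.4, 14.1 and 16.1 FPKM in vehicle replicates 2, 3 and 4, against 61.3, 64.6 and 57.8 FPKM in sulfatide replicates 1, 2 and 3. The lowest sulfatide library lay far above the highest vehicle library, and libraries of a group lay close together, with an SD of 7.93% of the mean in vehicle and 5.58% in sulfatide. The means were 15.6 ± 1.23 and 61.3 ± 3.42 FPKM (SD, n = 3 each), a log2 fold change of 1.91 ± 0.10 (SE). It was the 14th largest among the 10405 genes tested, at the 99.9th percentile, and ranged from 1.79 to 1.97 over 15 alternative analyses. Among all 22800 genes Slc16a1 moved from rank 5481 by mean level in vehicle to rank 2445 in sulfatide. The gene lies on chromosome 3 (mm10, 104638668 to 104658462, plus strand, GENCODE M21), where 2 predicted genes, Gm43581 and Gm43585, overlap it on the same strand.

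Slc16a3, the exporter of glycolytic cells, was at 444, 492 and 531 FPKM in vehicle replicates 2, 3 and 4 and at 499, 509 and 514 FPKM in sulfatide replicates 1, 2 and 3. All 3 sulfatide values lay between the vehicle values, and the SD was 8.91% of the mean in vehicle and 1.49% in sulfatide. The means were 489 ± 43.6 and 507 ± 7.56 FPKM (SD, n = 3 each), a log2 fold change of 0.06 ± 0.09 (SE), which turned to -0.0549 after rescaling to TPM and to -0.0109 without vehicle replicate 2. Slc16a3 lies on chromosome 11 (mm10, 120948480 to 120960868, plus strand).

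The sequences before the start sites of these 2 carriers are shown because they are the members that lay farthest apart in their difference between groups, and those of Ldha and Ldhb because these enzymes are subunits of one tetramer that differ in level. RefSeq promoter windows (GRCm38.p6, the assembly of mm10) matched 4 of the 5 symbols, and the 250 bases before the start site are given 5′ to 3′ on the strand of the gene. For Ldha the first of 2 listed start sites is shown. Capitals mark the core of the hypoxia response element, ACGTG or GCGTG on either strand, and the E-box CACGTG, which contains ACGTG on both strands. The windows are chr3:104638414-104638663 (plus strand) for Slc16a1, chr11:120948817-120949066 (plus strand) for Slc16a3, chr7:46845554-46845803 (plus strand) for Ldha and chr6:142507958-142508207 (minus strand) for Ldhb. The last 14 bases of the Slc16a3 window lie in an exon of the gene in GENCODE M21, and the other windows hold no annotated exon. The Slc16a3 and Ldha windows lie inside the GENCODE spans of these genes, which start farther upstream, at 120948480 and 46841475. Those of Slc16a1 and Ldhb lie outside the spans of their genes.
Slc16a1: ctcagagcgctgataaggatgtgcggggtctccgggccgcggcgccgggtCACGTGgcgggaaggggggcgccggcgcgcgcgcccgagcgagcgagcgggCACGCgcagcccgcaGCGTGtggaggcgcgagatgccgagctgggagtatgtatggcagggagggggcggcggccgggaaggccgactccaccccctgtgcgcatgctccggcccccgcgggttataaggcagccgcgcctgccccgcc
Slc16a3: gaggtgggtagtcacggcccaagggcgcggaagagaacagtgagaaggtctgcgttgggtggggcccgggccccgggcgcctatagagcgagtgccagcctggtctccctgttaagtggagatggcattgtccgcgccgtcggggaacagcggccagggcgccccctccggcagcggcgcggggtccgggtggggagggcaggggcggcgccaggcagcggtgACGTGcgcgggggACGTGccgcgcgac
Ldha: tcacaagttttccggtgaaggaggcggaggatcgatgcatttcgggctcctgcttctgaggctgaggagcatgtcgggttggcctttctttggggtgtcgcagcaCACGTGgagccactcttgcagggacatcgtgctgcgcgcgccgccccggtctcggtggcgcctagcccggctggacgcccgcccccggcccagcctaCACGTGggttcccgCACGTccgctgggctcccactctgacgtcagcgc
Ldhb: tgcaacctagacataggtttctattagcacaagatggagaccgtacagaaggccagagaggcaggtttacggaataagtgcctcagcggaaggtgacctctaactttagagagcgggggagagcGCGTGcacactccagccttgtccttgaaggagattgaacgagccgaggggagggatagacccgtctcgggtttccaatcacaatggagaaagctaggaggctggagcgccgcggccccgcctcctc

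The hypoxia core was found at 3 separate places before Slc16a1, starting 200, 149 and 134 bases before the start site, and at 2 places before Slc16a3, 27 and 14 bases before it. It was found at 3 places before Ldha, 145, 48 and 34 bases before the start site, and at 1 place before Ldhb, 126 bases before it. The window of the second Ldha start site held the core at 1 place, 59 bases before that site, with no E-box and 54.4% G and C. Of 32851 mouse promoter windows of the same length, 38.6% held the core at 1 or more places, 13.5% at 2 or more and 4.65% at 3 or more. The E-box was present once before Slc16a1 and at 2 places before Ldha, and in 6.02% of all windows. Matches were present both before Slc16a1 and before Slc16a3, and their part in the group differences was not tested. The windows differed in base composition, with 76.4% G and C for Slc16a1, 73.6% for Slc16a3, 67.2% for Ldha and 56.4% for Ldhb. These matches describe letters only, and binding was not measured.

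**Figure D2:**
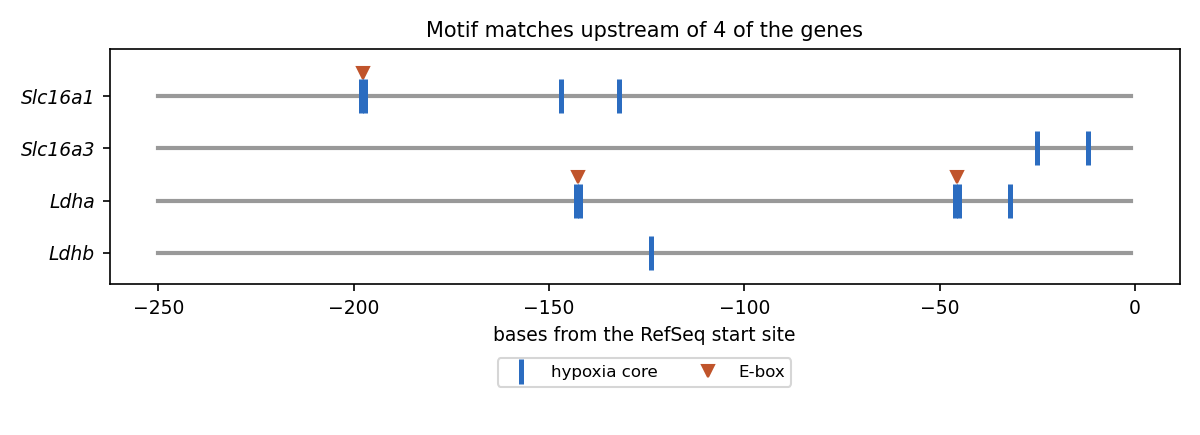
Places of the hypoxia core (vertical marks) and of the E-box (triangles) in the 250 bases before the RefSeq start site of 4 of the genes; the horizontal axis is the distance from that start in bases. The matches of Slc16a3 lie 27 and 14 bases before the start site, those of Slc16a1 at least 134 bases before it.

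Slc16a1 and Slc16a3 together were at 461, 506 and 547 FPKM in the vehicle libraries and at 560, 574 and 572 FPKM in the sulfatide libraries. Slc16a1 made up 3.56, 2.79 and 2.95% of this sum in vehicle replicates 2, 3 and 4, against 10.9, 11.3 and 10.1% in sulfatide replicates 1, 2 and 3. Slc16a3 was thus the more abundant carrier transcript in each library, 31.6 ± 4.02 times the level of Slc16a1 in vehicle and 8.30 ± 0.524 times in sulfatide (SD, n = 3 each). The proportions did not overlap between the groups, and a factor common to all genes of a library cancels out of them. They restate the Slc16a1 values, known when the gene was chosen, beside a nearly level Slc16a3, and so are no separate evidence.

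Of 14 further carriers in the same families, 4 reached the level for testing, 1 was lower in sulfatide and none was higher (median log2 fold change -0.04). Slc16a10, a carrier of aromatic amino acids, fell from 158 ± 16.1 to 123 ± 12.6 FPKM (log2 fold change -0.36 ± 0.11, adjusted p = 0.0475). Without any one of the 6 libraries it did not pass (adjusted p = 0.0519 to 0.160), nor with no filter, quantile normalization, array weights or a replicate block (0.0183 to 0.304 over all 15 alternatives). Slc16a7 (MCT2), a lactate and pyruvate carrier of high affinity, was at 2.02 to 3.63 FPKM in vehicle and 2.17 to 3.13 in sulfatide (log2 fold change -0.04 ± 0.18, adjusted p = 0.903), a sign that turned without vehicle replicate 3 (0.14) and without sulfatide replicate 3 (0.04). Slc16a8 (MCT3) was at 0.06 FPKM in 1 sulfatide library and listed at 0 in the other 5 libraries. The sodium-coupled lactate carriers Slc5a8 and Slc5a12 were listed at 0 in all 6.

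Bsg, the glycoprotein that escorts both carriers to the membrane, was at 338, 373 and 348 FPKM in vehicle replicates 2, 3 and 4 and at 417, 401 and 416 FPKM in sulfatide replicates 1, 2 and 3. The groups did not overlap, but the gap between the nearest libraries was narrow. The means were 353 ± 18.0 and 412 ± 8.96 FPKM (SD, n = 3 each), a log2 fold change of 0.22 ± 0.08 (SE) that was not past the threshold. It was past it in 3 of 15 alternatives: quantile normalization (0.23), array weights (0.26) and without vehicle replicate 3 (0.26). After rescaling to TPM the value was 0.11. There were 0.735, 0.738 and 0.636 FPKM of Bsg per FPKM of the 2 carriers in vehicle replicates 2, 3 and 4, against 0.744, 0.699 and 0.728 in sulfatide replicates 1, 2 and 3. This proportion overlapped between groups (0.703 ± 0.0577 and 0.724 ± 0.0230, SD, n = 3 each). Bsg lies on chromosome 10 (mm10, 79704491 to 79711969, plus strand).

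**Figure D3:**
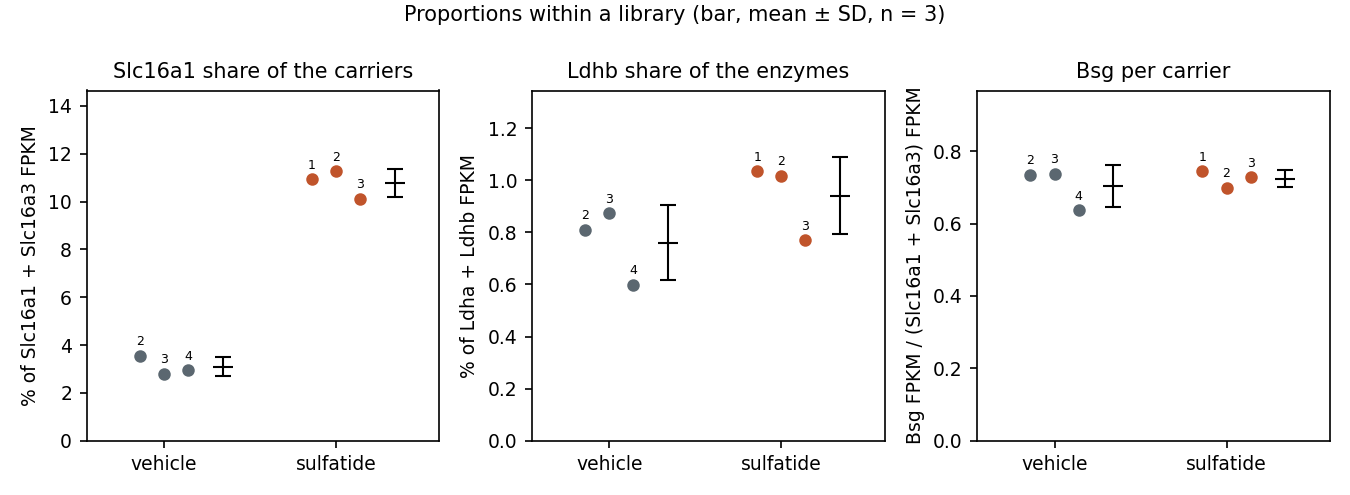
Proportions of the transcripts within each library: Slc16a1 as a percent of both carriers, Ldhb as a percent of both lactate dehydrogenases, and Bsg per FPKM of both carriers (vertical axes from 0); points are libraries with their replicate number, bars the mean ± SD (n = 3). Only the first of the 3 proportions separates the groups, at 2.79 to 3.56% in vehicle and 10.1 to 11.3% in sulfatide.

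Among the basigin family and the proteins that bind basigin, 8 of 8 genes were tested, 1 was higher and 2 were lower (median log2 fold change -0.10). Emb, encoding embigin, the close relative of basigin that serves as an alternative escort of monocarboxylate carriers, was at 170, 153 and 160 FPKM in vehicle and at 242, 331 and 306 FPKM in sulfatide. It rose 1.82-fold (161 ± 8.62 to 293 ± 46.1 FPKM, log2 fold change 0.85 ± 0.12, adjusted p = 0.00144) and was past the threshold in all 15 alternatives. The third family member, neuroplastin (Nptn), was at 156 ± 2.48 and 157 ± 2.22 FPKM, a log2 fold change of 0.01 ± 0.07 with an adjusted p of 0.946, and turned sign after rescaling to TPM (-0.10) or by median ratios (-0.02) and without vehicle replicate 4 (-0.00413). Cd44, the hyaluronan receptor, fell 1.82-fold (81.1 ± 3.91 to 44.6 ± 4.29 FPKM, adjusted p = 0.000444). Slc3a2, the heavy chain of amino acid carriers, fell from 896 ± 80.1 to 721 ± 26.6 FPKM (adjusted p = 0.0399), but leaving out vehicle replicate 2 or 4 gave adjusted p = 0.117 and 0.125, with 0.130, 0.0514 and 0.120 without sulfatide replicates 1, 2 and 3.

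Ldha was the most abundant of the 5 transcripts, at 2116, 2170 and 2352 FPKM in vehicle replicates 2, 3 and 4 and at 2572, 2537 and 2925 FPKM in sulfatide replicates 1, 2 and 3. The groups did not overlap. The means were 2212 ± 123 and 2678 ± 215 FPKM (SD, n = 3 each), a log2 fold change of 0.27 ± 0.09 (SE) that was not past the threshold, and in the alternatives was past it only with array weights (0.36). By mean level Ldha ranked 49th of all genes in vehicle and 41st in sulfatide. GENCODE lists 2 pseudogenes named after Ldha, and copies annotated under other names were not counted. How the authors assigned fragments that match several copies is not given in the sources used here. Ldha lies on chromosome 7 (mm10, 46841475 to 46855627, plus strand).

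Ldhb was at 17.3, 19.1 and 14.2 FPKM in vehicle replicates 2, 3 and 4 and at 26.9, 26.1 and 22.7 FPKM in sulfatide replicates 1, 2 and 3. The groups did not overlap, and the means were 16.9 ± 2.50 and 25.2 ± 2.24 FPKM (SD, n = 3 each). The log2 fold change of 0.56 ± 0.13 (SE) lay at the 95.0th percentile of all genes tested. It was no longer past the threshold without vehicle replicate 2 (0.58), vehicle replicate 4 (0.45) or sulfatide replicate 1 (0.51), nor with the replicate number as a block (0.40). Ldhb lies on chromosome 6 (mm10, 142490249 to 142507957, minus strand).

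Within each group Ldha and Ldhb did not order the libraries alike. Vehicle replicate 4 had the highest Ldha and the lowest Ldhb of the vehicle libraries, and sulfatide replicate 3 had the highest Ldha and the lowest Ldhb of the sulfatide libraries. Ldhb made up 0.811, 0.874 and 0.599% of the summed lactate dehydrogenase transcripts in vehicle replicates 2, 3 and 4, compared with 1.03, 1.02 and 0.769% in sulfatide replicates 1, 2 and 3. These shares overlapped between groups (0.761 ± 0.144 and 0.941 ± 0.149%, SD, n = 3 each), since sulfatide replicate 3 lay below vehicle replicates 2 and 3. Ldha was 134 ± 28.1 times as abundant as Ldhb in vehicle and 107 ± 18.8 times in sulfatide.

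The order of the mean levels was Ldha, Slc16a3, Bsg, then Ldhb and Slc16a1 in vehicle, and Ldha, Slc16a3, Bsg, Slc16a1 and Ldhb in sulfatide. Slc16a1 and Ldhb overlapped in vehicle, where Slc16a1 was 0.942 ± 0.199 times the level of Ldhb (SD, n = 3). In sulfatide it was 2.44 ± 0.139 times that level, and no library overlapped. The remaining neighbours in the order did not overlap in either group. The 5 genes together held 0.270 ± 0.0171% of the summed FPKM in vehicle and 0.298 ± 0.0167% in sulfatide.

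Of the other lactate enzymes and the lactate receptor, 6 genes, 2 were tested and none passed. The testis lactate dehydrogenase Ldhc was at 0.09 FPKM in 1 sulfatide library and listed at 0 in the other 5. The D-lactate dehydrogenase Ldhd did not exceed 0.23 FPKM, and the lactate receptor Hcar1 was listed at 0 in all 6 libraries. The tested genes, Glo1 and Hagh, turn methylglyoxal into D-lactate. Glo1 had a log2 fold change of 0.27 ± 0.10 (adjusted p = 0.102). Hagh was at 16.8, 26.6 and 23.5 FPKM in vehicle and at 40.3, 28.6 and 32.2 FPKM in sulfatide, without overlap, a log2 fold change of 0.58 ± 0.18 with an adjusted p of 0.0501. The list had 1 higher call with the 5 FPKM filter, median ratio scaling, quantile normalization or without sulfatide replicate 2, and 2 with array weights or without vehicle replicate 3.

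In all, 79 genes around the 5 were tested in 8 lists, of which 4 were higher (5.06%) and 12 lower (15.2%) in sulfatide, 20.3% in all beside 18.7% of all genes tested (8.31% higher and 10.4% lower), with a median log2 fold change of 0.01 beside 0.04 for all genes tested. Of 13 tested genes of pyruvate entry into mitochondria 1 was higher and none lower (median 0.09). This was Pdk2, a kinase that switches off pyruvate dehydrogenase, which rose 2.13-fold (2.00 ± 0.704 to 4.25 ± 0.451 FPKM, adjusted p = 0.0148). The pyruvate carrier subunits Mpc1 (62.9 ± 8.98 and 59.8 ± 3.64 FPKM, adjusted p = 0.731) and Mpc2 (101 ± 11.8 and 125 ± 3.75 FPKM, adjusted p = 0.0571, and 0.0114 without vehicle replicate 3) did not pass. Mpc1 turned sign without vehicle replicate 3 (0.04). Pdha1, of pyruvate dehydrogenase, was at 57.4 ± 3.26 and 59.3 ± 4.03 FPKM (adjusted p = 0.760), Pdk1 at 25.3 ± 1.52 and 27.9 ± 3.64 FPKM (adjusted p = 0.449), and pyruvate carboxylase (Pcx) at 2.34 ± 0.136 and 2.58 ± 0.553 FPKM (adjusted p = 0.703).

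The shuttles that compete with lactate dehydrogenase for cytosolic NADH had 11 tested genes, 2 lower and none higher (median log2 fold change -0.05). Gpd2, the mitochondrial enzyme of the glycerol phosphate shuttle, fell 1.52-fold (16.2 ± 1.13 to 10.6 ± 1.58 FPKM, adjusted p = 0.0152, but 0.0630 without vehicle replicate 2 and 0.0576 without vehicle replicate 4). The aspartate-glutamate carrier Slc25a12 fell 1.39-fold (45.2 ± 4.23 to 32.6 ± 0.716 FPKM, adjusted p = 0.0113). Mdh1 was at 149 ± 22.8 and 179 ± 22.2 FPKM (adjusted p = 0.184, and 0.0378 without vehicle replicate 3) and Got1 at 31.7 ± 0.527 and 32.0 ± 1.95 FPKM (adjusted p = 0.954), both cytosolic enzymes of the malate-aspartate shuttle.

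**Figure D4:**
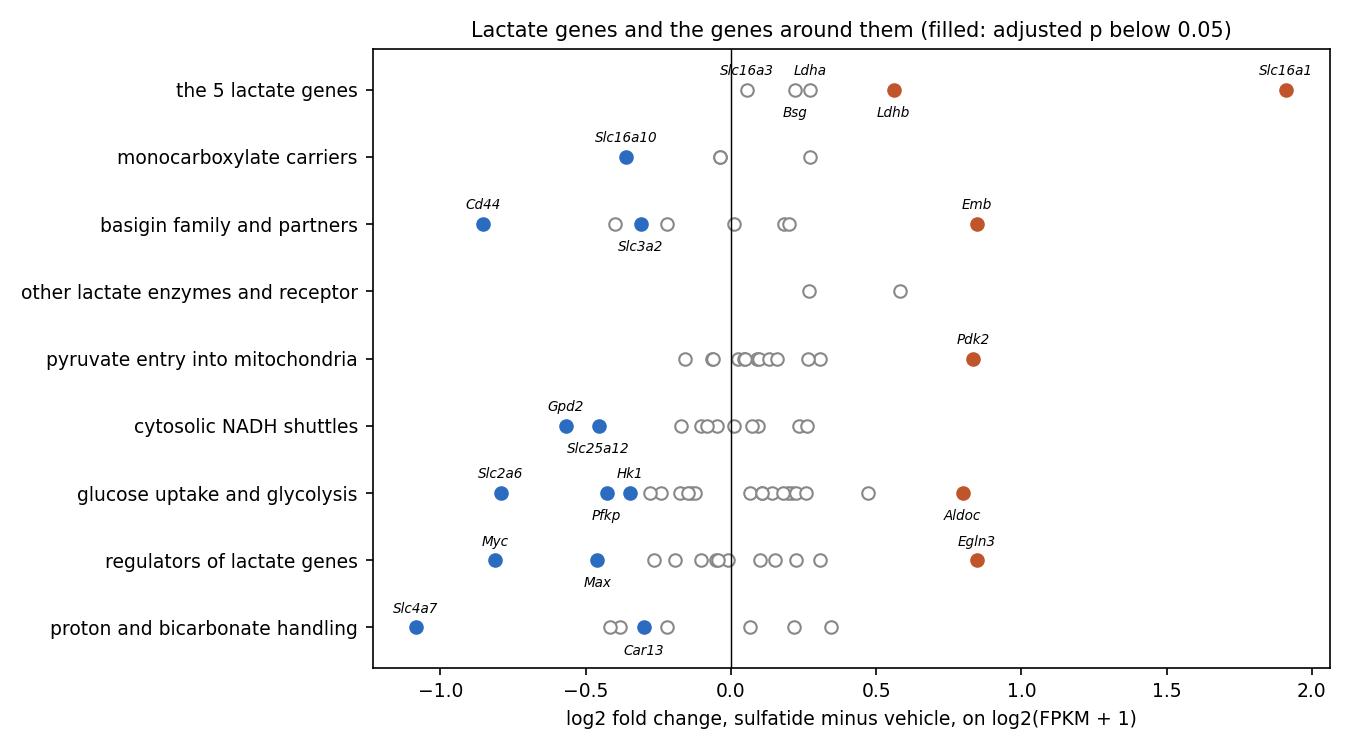
Log2 fold change (horizontal axis, sulfatide minus vehicle on log2(FPKM + 1)) of the 5 lactate genes and of the 79 tested genes in 8 lists around them; each point is a gene, and filled points had an adjusted p below 0.05 by limma (red higher, blue lower). Slc16a1, at 1.91, lies beyond each of the 79 genes.

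Of 20 tested genes of glucose uptake and glycolysis 1 was higher and 3 were lower (median log2 fold change 0.09). Aldoc, a fructose bisphosphate aldolase, rose 1.78-fold (adjusted p = 0.00125), and the hexose carrier Slc2a6 (1.73-fold, adjusted p = 0.00150), the phosphofructokinase Pfkp (1.35-fold, adjusted p = 0.00691) and the hexokinase Hk1 (1.28-fold, adjusted p = 0.0389) fell. For Hk1, leaving out vehicle replicate 2 or 4 gave adjusted p = 0.0781 and 0.119, with 0.122, 0.0514 and 0.112 without sulfatide replicates 1, 2 and 3. The glucose carrier Slc2a1 was at 241 ± 11.2 and 218 ± 25.5 FPKM (adjusted p = 0.325), and Pkm, which makes the pyruvate that lactate dehydrogenase uses, at 1979 ± 284 and 2298 ± 124 FPKM (adjusted p = 0.189). Gapdh was listed at only 18.1 to 23.1 FPKM in vehicle and at 73.4, 15.3 and 19.8 FPKM in sulfatide replicates 1, 2 and 3 (adjusted p = 0.510), far below the glycolytic enzymes next to it in the pathway (Pgk1 at 1949 ± 87.7 FPKM in vehicle), and its direction turned without sulfatide replicate 1 (log2 fold change -0.20). GENCODE lists 2 pseudogenes named after Gapdh, and copies annotated under other names were not counted. The assignment of fragments shared with near-identical copies is unknown, so the Gapdh level is uncertain and is not compared further.

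Of 13 tested regulators known to act on lactate genes 1 was higher and 2 were lower (median log2 fold change -0.04). Hif1a, the oxygen-regulated subunit of the hypoxia factor, was at 59.4 ± 5.00 and 64.1 ± 10.5 FPKM, a log2 fold change of 0.10 ± 0.12 with an adjusted p of 0.605, with the sign turned without sulfatide replicate 2 (-0.03) and after rescaling to TPM (-0.01). Egln3, a prolyl hydroxylase that marks it for decay and is itself a hypoxia target, rose 1.85-fold (24.0 ± 0.379 to 44.4 ± 7.31 FPKM, adjusted p = 0.00161). Myc, a driver of Slc16a1 and Ldha transcription in dividing cells, fell 1.81-fold (14.3 ± 0.560 to 7.92 ± 2.38 FPKM, adjusted p = 0.0117), and its partner Max fell 1.38-fold (adjusted p = 0.00843, but 0.0519 without vehicle replicate 2). Of 8 tested genes that move or buffer acid, 2 were lower and none higher (median -0.26): the bicarbonate carrier Slc4a7 (4.17 ± 0.797 to 1.47 ± 0.633 FPKM, adjusted p = 0.00501) and the carbonic anhydrase Car13 (1.23-fold, adjusted p = 0.0399). Car13 did not pass without vehicle replicate 2 (0.168), vehicle replicate 4 (0.0516) or sulfatide replicate 1, 2 or 3 (0.0902, 0.0607 and 0.143).

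In libraries of mixed cells, fewer cells of a type and less RNA per cell cannot be told apart. Of 13 marker lists, 3 held genes that were higher in sulfatide, those of dividing cells, neutrophils and dendritic cells. All 10 cell cycle markers were tested and 4 were higher (Birc5, Kif20a, Rrm2 and Tk1), beside 8.31% of all genes tested. The other 6 did not pass, though all 10 had a positive log2 fold change. Their summed level was 633 to 889 FPKM in vehicle and 891 to 1301 in sulfatide, and none was at 0. Pcna, the most abundant of them, was nearly level, at 422 to 436 FPKM in vehicle and 418 to 475 in sulfatide. Of 11 neutrophil markers 5 were tested and 2 were higher (S100a8 and Mmp8), with sums of 173 to 237 and 460 to 632 FPKM. S100a8 made up most of the sulfatide sums, at 91.7 to 114 FPKM in vehicle and 361 to 471 in sulfatide, whereas S100a9 was at 21.9 ± 7.61 and 21.2 ± 12.6 FPKM and Camp at 5.12 ± 0.826 and 3.46 ± 0.387 FPKM, neither past the threshold by limma (adjusted p = 0.804 and 0.0519). Ly6g did not exceed 0.18, Cxcr2 0.12 and Retnlg 0.45 FPKM in any library. Of 7 dendritic cell markers 2 were tested, Cd209a higher and Ccr7 lower, and the list summed to at most 3.42 FPKM. The part of these cells in the differences of Slc16a1 and Ldhb was not tested. The 9 red cell markers summed to at most 1.78 FPKM in any library, none reached the level for testing, and Hba-a2, Hbb-bs, Hbb-bt, Slc4a1 and Epb42 were listed at 0 in all 6. How fragments shared by near-identical globin genes were assigned is not known from these sources. The 10 epithelial markers summed to at most 0.45 FPKM, and the 11 markers of T and NK cells to at most 1.01 FPKM. Pdgfrb was lower among 5 tested endothelial and stromal markers and Plet1 among the alveolar macrophage markers, and none of the tested monocyte (4), platelet (3), B cell (1) or eosinophil and mast cell (1) markers passed. The endothelial and stromal list summed to 58.1 to 75.8 FPKM in vehicle and 52.7 to 68.2 in sulfatide. Platelet markers summed to 518 to 1088 and 696 to 1010 FPKM, mostly Pf4 (503 to 1077 and 684 to 996).

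The genes most like each member were found by Pearson's r of log2(FPKM + 1) over the 6 libraries among 7965 other tested genes with a mean of at least 5 FPKM. The points share the 2 groups, so that a group difference alone gives a high r. For Slc16a1 they were the chromatin factor Mta3 (r = 0.9996), the Fc receptor Fcgr3 (0.998), haptoglobin (Hp, 0.998), the mitochondrial protease Afg3l2 (0.998) and the lysosomal phospholipase Pla2g15 (0.997), and 153 genes had an r above 0.95. Their folds differed widely, from 1.15 for Mta3 to 4.23 for Hp. By limma Mta3 was not past the threshold (adjusted p = 0.154), whereas Fcgr3, Hp, Afg3l2 and Pla2g15 were. For Slc16a3 they were the glutamine carrier Slc1a5 (0.984), Arid1b (0.983) and Fam117b (0.982), and only 8 genes had an r above 0.95. Slc1a5 was at 33.2, 37.2 and 41.0 FPKM in vehicle replicates 2, 3 and 4 and at 38.9 to 39.3 FPKM in sulfatide. The vehicle libraries had the same order as for Slc16a3, and the sulfatide range was likewise narrow. Selection by r largely fixes this likeness, so it is no separate evidence of a link. For Bsg they were Hddc2 (0.999), Oaz2 (0.997) and Pigyl (0.996), for Ldha Fam50a (0.999) and Galt (0.992), and for Ldhb Lrrc27 (0.996), Gcsh (0.992) and Nup43 (0.992). The numbers of genes with an r above 0.95 were 356 for Bsg, 33 for Ldha and 170 for Ldhb.

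**Figure D5:**
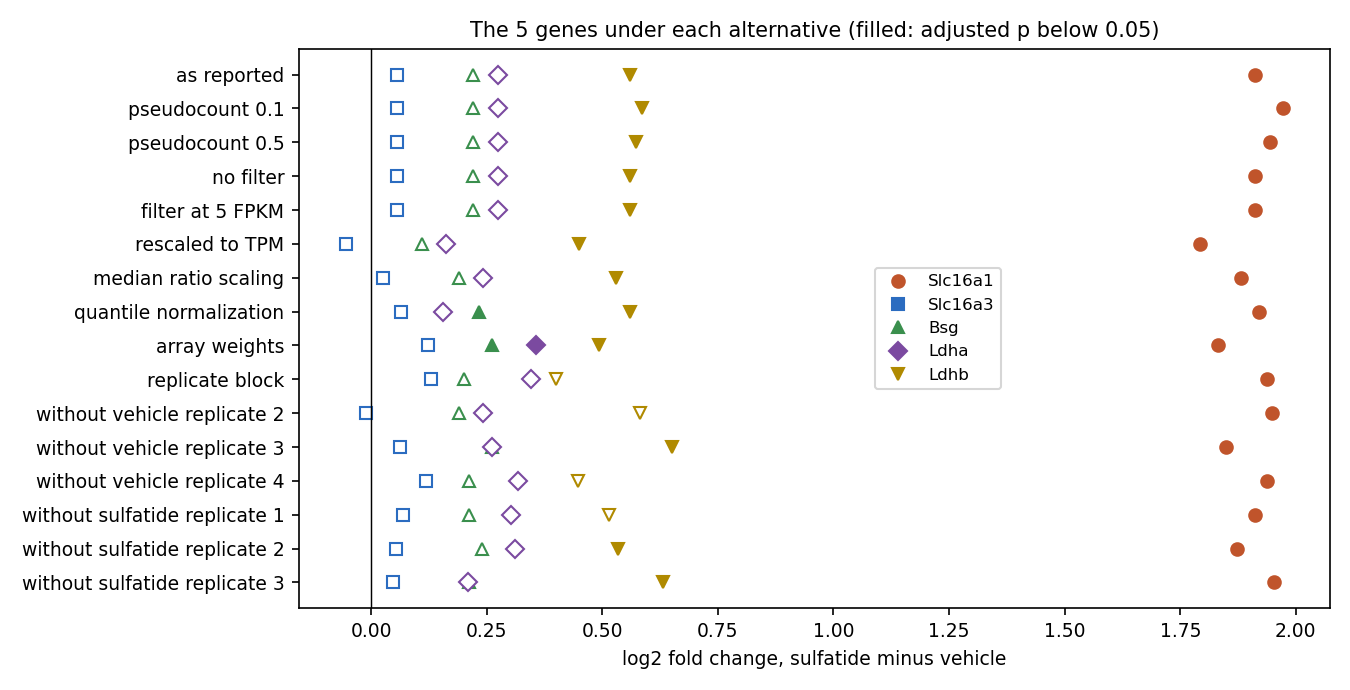
Log2 fold change of the 5 genes (horizontal axis, sulfatide minus vehicle) as reported and under 15 alternatives (rows). Filled marks had an adjusted p below 0.05 by limma. Without vehicle replicate 3, the filled mark of Bsg lies under the open mark of Ldha. Slc16a1 stays between 1.79 and 1.97, Ldhb between 0.40 and 0.65, and Slc16a3 lies on both sides of 0.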

How the data were processed

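RNA of lavage cells was sequenced from poly(A)-selected, strand-specific (dUTP) paired-end libraries, per the labels' protocols. Per the submitters' processing notes, reads were placed on mm10. Aligner, counting program, gene annotation and use of strand: not given in the sources used here. The authors deposited 1 table of FPKM values, rounded to 2 decimals, for 22800 gene symbols. Its 3 value columns that matched no sample were not used. The table holds no counts, so the absolute depth is unknown.

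Groups and replicate numbers came from the sample titles. Values were analysed as log2(FPKM + 1) for the 10405 genes with at least 1 FPKM in at least 3 libraries, with limma 3.58.1 in R 4.3.3 (lmFit, eBayes with an intensity trend, 2-sided, Benjamini-Hochberg adjustment over all genes tested, threshold 0.05). The procedure was tested on simulated data in which noise was drawn separately for each gene and library. That test does not cover shifts shared by the genes of a library. Standard errors are limma's, folds are ratios of mean FPKM, and the log2 scale understates changes of low genes. With 3 libraries a group, exact permutation reaches no p under 0.1 and was not used. The 5 genes and all lists were chosen with earlier results of these data known. Genes named beside the 5 were a fixed set next to them in the pathway, up to 4 called genes with the smallest p of each list, and the genes most alike (5 for Slc16a1, 3 for each other member), of which 1 is not reported here; Glo1, Hagh, Pgk1 and further carriers were added after their values were seen, as were markers. Pyruvate carboxylase was matched as Pcx. Positions are from GENCODE M21 and promoter sequences from RefSeq (GRCm38.p6). Alternatives were other pseudocounts (0.1 and 0.5), no filter or 5 FPKM, 3 scalings, array weights, a replicate block and leaving out each library.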

Additional observations from a re-analysis of the deposited data

How the results depend on the processing

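Slc16a1 was higher and past the threshold in all 15 alternatives (log2 fold change 1.79 to 1.97; 1.85 to 1.95 when single libraries were left out). Ldhb was past it in 11, with 0.45 to 0.65 when libraries were left out. Ldha was past it with array weights (0.36). Bsg was past it with array weights (0.26) and quantile normalization (0.23), and at 0.19 to 0.26 when libraries were left out. Slc16a3 was past it in none, with -0.0549 after rescaling to TPM and -0.0109 to 0.12 when libraries were left out. Replicate numbers 2 and 3 occur in both groups, but no label says that they pair libraries. Deviations from the group means correlated at 0.16 for number 2 and at -0.30 for number 3, so the numbers were not taken as pairs. A fit with a replicate block takes the group difference from numbers 2 and 3 only, as each other number occurs in a single group. It leaves little residual spread to judge by, so it cannot show whether a call holds over all libraries. With a replicate block 297 genes were higher and 635 lower, and Ldhb was at 0.40 without passing. Of the pathway genes named as changed, Myc, Slc16a10, Slc3a2, Slc25a12, Gpd2, Hk1 and Car13 did not pass with the block (adjusted p = 0.0757 to 0.304). For all changes below, the cause was not tested.

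Genes called higher numbered 522 with no filter, 467 after TPM and 2054 with array weights (1723 lower), and 263 to 1420 higher and 603 to 1136 lower when libraries were left out. With no filter, the other carriers had 0 and the basigin list 1 lower call, and medians were 0.16 for other lactate enzymes and -0.0627 for acid handling. With the filter at 5 FPKM, other lactate enzymes had 1 and pyruvate entry 0 higher calls, and acid handling 1 lower. Pdk2 and Slc4a7 were not tested with that filter, and both passed in all 14 other alternatives. After TPM the medians were -0.22 for the basigin list, -0.0109 for pyruvate entry, -0.16 for NADH shuttles, -0.0261 for glycolysis, -0.15 for regulators and -0.37 for acid handling. With median ratio scaling, other lactate enzymes had 1 and pyruvate entry 2 higher calls. With quantile normalization they had 1 and 2, the other carriers 0 lower, and the glycolysis median was -0.0801. With array weights, the other carriers had 0 lower, the basigin list 2 higher and 4 lower, other lactate enzymes 2 and pyruvate entry 2 higher, glycolysis 6 higher and 6 lower, regulators 3 higher, and acid handling 1 higher and 4 lower. With the replicate block, lower calls were 0 for the other carriers, 1 for the basigin list, 0 for NADH shuttles, 1 for regulators and 1 for acid handling, and medians were 0.0452 for regulators and -0.14 for acid handling.

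When libraries were left out, lower calls were 0 for the other carriers, 1 to 2 for the basigin list, 1 to 2 for NADH shuttles, 1 to 2 for regulators and 1 to 3 for acid handling. Higher calls were 0 to 2 for other lactate enzymes, 1 to 2 for pyruvate entry and 0 to 1 for NADH shuttles. Medians were -0.0918 to 0.0308 for NADH shuttles and -0.0547 to 0.0490 for regulators. Genes that did not pass in the main analysis turned sign after TPM (Nptn -0.10, Pdha1 -0.0648, Got1 -0.0985, Hif1a -0.00955, Slc1a5 -0.0306, Arid1b -0.0367, Fam117b -0.0184), with median ratios (Nptn -0.0222, Got1 -0.0212), array weights (Pcx -0.00279, Got1 -0.00708, Hif1a -0.0116) or the replicate block (Gapdh -0.11, Got1 -0.0525). Leaving out libraries gave -0.17 to 0.14 for Slc16a7, -0.16 to 0.0422 for Mpc1, -0.00413 to 0.0207 for Nptn, -0.00267 to 0.0938 for Pdha1, -0.20 to 0.89 for Gapdh, -0.0392 to 0.0363 for Got1, -0.0271 to 0.19 for Hif1a and -0.0213 to 0.12 for Arid1b.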
